A study of Mus musculus with 16 samples.

Results

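Kinesins are motor proteins that walk along microtubules, and their genes were followed here in adult mouse forebrain RNA and in embryonic cells and tissue of the caudal ganglionic eminence (CGE), a forebrain region that produces cortical interneurons. A probe was taken when the array's own name or the platform's symbol for it started with Kif and a number, or was Klc1, Klc2 or Kifc1 to Kifc3. This gave 47 of 24109 gene probes, which stand for 37 of 18887 named genes. Of these genes, 29 had 1 probe, 6 had 2 and 2 had 3, and the probe with the highest mean intensity over all arrays stands for a gene unless another is named. By textbook function, 11 genes were classed as mitotic, 15 as transport kinesins of neurons and 11 as other kinesins.

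Expression was read on 16 spotted arrays, each hybridised with 1 Cy5-labelled sample. The 3 control arrays carried 15 µg of unamplified RNA of adult female B6.C3Sn forebrain, taken per the labels from a wild-type forebrain, so the arrays may be technical repeats and p-values measure only the spread between arrays. The 3 explant arrays carried 5 µg of unamplified RNA of OF1 embryos at day 14, labelled as CGE explant although the extraction text names the whole telencephalon. In the 3 microfluidic arrays, 10 pg of the adult RNA was reverse-transcribed for 20 min in a 7 nL rotary mixer, and for the 3 conventional arrays a tube with 10 µL held an equal amount for 20 min. The 4 single-cell arrays each carried 1 dissociated OF1 CGE cell of day 14, reverse-transcribed for 25 min in the mixer. All 10 of these small samples went through template-switching PCR of 40 cycles on oligo-dT primed cDNA, whereas control and explant RNA was primed with random hexamers. Embryos and adults thus differed in strain, age and dissected region at once, and priming and amplification differed together.

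Mitotic kinesins build and elongate the spindle, move chromosomes and close the cleavage furrow, so they are made mostly by dividing cells. Transport kinesins carry vesicles, mitochondria and receptors along axons and dendrites. Kinesin-1 is a pair of heavy chains (Kif5a, Kif5b or Kif5c) with light chains (Klc1, Klc2), kinesin-2 is built from Kif3a with Kif3b or Kif3c, and kinesin-3 includes Kif1a and Kif1b, which haul the precursors of synaptic vesicles. In the embryonic ganglionic eminence dividing progenitors and young neurons lie side by side, while adult forebrain holds mainly mature neurons and glia.

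Values are log2 intensities after background correction and normalisation over all arrays, and a probe was above background where its foreground exceeded the local background by 2 background standard deviations. The share of all probes above background was 63.9% to 68.8% on the control arrays, 13.3% to 27.7% on the explant arrays, 34.3% to 50.0% with the mixer, 3.21% to 5.72% with the tube and 25.3% to 48.3% in the cells. Explant 2, the array with the share of 13.3%, had 2475 probes with spots marked bad, and 8 of its 47 kinesin probes were lost in this way. Probes of 1 array can differ in how well they bind, so each probe is compared only with itself across arrays. Every scan session held arrays of 1 group, so scan session and group cannot be told apart. As checks of the labels, Mbp, a myelin gene, was at 14.99 to 15.17 on the control arrays and at 8.78 to 9.49 on the explant arrays, and Mki67, a proliferation marker, was at 12.18 to 12.51 and at 14.05 to 14.30.

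The first comparison asks how kinesin expression differs between embryonic and adult tissue when neither was amplified. In the explants 7 transport kinesins were lower, led by Kif5a, Kif17, Kif13a, Kifc2 and Kif1a, and 1 mitotic kinesin, Kif20a, was called higher on readings of which 1 in 3 was above background. In all, 22 of the 37 genes could be tested, 2 were called higher and 7 lower at an adjusted p under 0.05 (limma). Over all named genes tested, 15.8% were called higher and 26.9% lower. Among the 15 transport kinesins 12 were tested, 7 were called lower and none higher by limma (1, Kif21b, at an unadjusted p under 0.05), with a median difference of -1.02, against a median of -0.29 over all named genes. Of these 12, Kif17, Kif3b and Kifc2 were above background on no explant array and passed the brightness filter through the control arrays alone. A higher level in explants could not have been measured for them, so their lower direction was largely set by that choice. The same filter was passed through the controls alone by at least Kif5a, Kif1b and Kif5b, which were above background on some explant arrays but not all. When the spread was estimated over 4 groups together, 5 of the 9 calls were left, 4 of them transport kinesins. Outside these counts, a dimmer Kif21b probe and Klc1, which the array lists under an older name, were higher in explants, as given below. Less RNA per cell and fewer cells that hold it cannot be told apart in tissue RNA.

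Kif5a, the heavy chain of kinesin-1 that is largely restricted to neurons, differed most among the transport kinesins tested. Its level was 15.15, 15.28 and 15.27 on the control arrays, all saturated, and 12.37, 11.87 and 12.28 on the explant arrays. The groups lay far apart, and the difference was -3.06 ± 0.24 (log2, SE, n = 3 and 3; adjusted p = 0.000124), which is at least 7.90-fold because the control spots could not read higher and explant 2 was not above background. A second Kif5a probe, unsaturated, gave 14.64, 14.74 and 14.61 against 11.59, 12.05 and 12.03, a difference of -2.77 ± 0.24 (adjusted p = 0.000182). Its sister chains did not pass the test. Kif5b, the heavy chain found in most tissues, was at 12.16, 11.67 and 12.15 in controls and at 12.77, 11.99 and 12.61 in explants, and the overlap of the groups left +0.47 ± 0.30 (adjusted p = 0.233). Kif5c, a neuronal heavy chain, was at 15.98, 15.97 and 14.06 against 14.49, 14.21 and 14.86. Controls 1 and 2 were saturated and control 3 lay below every explant, so the size of the difference was not measured, and it did not pass the test (adjusted p = 0.239).

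The kinesin-1 light chain Klc2 was saturated on all control arrays (14.99, 15.14 and 15.12) and stood at 15.03, 14.78 and 15.07 in explants, so a higher level in controls could not have been read. A second, dimmer Klc2 probe read 11.53, 11.62 and 11.23 against 10.99 and 10.59, with explant 2 lost, and did not pass either (-0.68 ± 0.29, adjusted p = 0.102). The other light chain, Klc1, was not among the names searched for; the array carries it as Kns2, its older name. That probe was higher in explants, at a mean of 14.07 against 12.90 (+1.17 ± 0.29, adjusted p = 0.0159).

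Kif1a, the vesicle-precursor motor of axons, was saturated on the control arrays at 15.11, 15.30 and 15.55 and was at 13.18, 13.51 and 14.07 in explants. It was therefore at least 3.33-fold lower there (-1.74 ± 0.30, adjusted p = 0.00331). Kif1b, its close relative, which also carries mitochondria, was at 12.43, 12.49 and 12.68 against 11.62, 11.76 and 11.82. The groups did not overlap, but the difference was smaller (-0.80 ± 0.22, adjusted p = 0.022), with 1 explant array above background, and it passed the threshold in 9 of 15 alternative analyses.

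Kif17, a dendritic motor known for carrying NMDA receptors, was at 12.93, 13.47 and 12.71 in controls and at 9.98, 10.71 and 9.76 in explants. No explant array rose above background, which makes the fall at least 3.09-fold (-2.89 ± 0.34, adjusted p = 0.000643). Kif13a, a kinesin-3 that moves endosomal and Golgi cargo, was at 13.29, 13.85 and 13.77 against 11.67, 11.19 and 12.21 (-1.95 ± 0.32, adjusted p = 0.00292). Kifc2, a minus-end motor of neurons, was at 11.64, 11.71 and 11.20 against 9.66 and 9.69 on the explant arrays left after explant 2 was lost. Neither explant value was above background, and the fall was at least 1.37-fold (-1.84 ± 0.29, n = 2 and 3, adjusted p = 0.00331). Kif17 and Kifc2 entered the test through the controls alone, so their lower direction was largely set by that choice.

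Of the kinesin-2 subunits, which also drive transport in cilia, Kif3b passed the test and Kif3a did not. Kif3a, the shared subunit, was at 12.28, 10.98 and 12.09 in controls and at 12.73, 12.61 and 12.33 in explants, all explants above all controls, but control 2 widened the spread and the difference of +0.77 ± 0.37 did not pass (adjusted p = 0.127). Kif3b, its partner, was at 12.17, 11.73 and 12.29 against 11.40, 10.41 and 10.72, and was lower in explants by at least 1.44-fold (-1.22 ± 0.32, adjusted p = 0.0189); the call was lost in 4 of 15 alternatives. Kif3c had no explant value, since all 3 of its explant spots were marked bad. Kif21a, an axonal kinesin-4, was at 13.27, 12.88 and 13.44 in controls and at 12.91 on the only explant array measured, and was not tested. Kif21b, its relative in axons and dendrites, was represented by probes that disagreed. The brightest read 13.68, 13.41 and 13.08 against 13.73, 14.09 and 14.31 and did not pass (+0.65 ± 0.27, adjusted p = 0.0894), while the other read 10.39, 10.75 and 10.20 against 12.60, 12.78 and 13.39 and was higher in explants (+2.48 ± 0.30, adjusted p = 0.000696). Kif13b, a kinesin-3 with 3 probes, was tested on its dimmer probes alone, which gave -0.25 and +0.14 and did not pass.

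**Figure D1:**
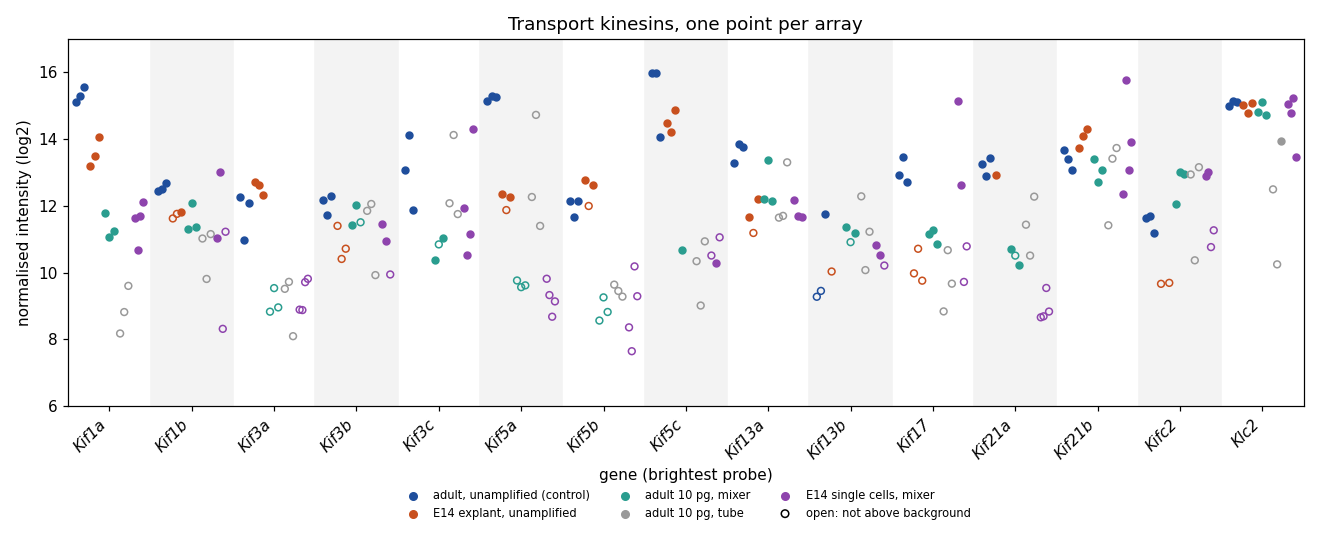
Normalised log2 intensity (vertical axis) of the 15 transport kinesins (horizontal axis), 1 point per array, coloured by group; filled points are above background and open points are not. Kif5a, Kif1a and Kif17 lie lower in explants than in controls, while Kif5b and Kif3a lie near or above the controls in explants and among the open points in every mixer array and cell.

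Markers of the cells in the samples moved with these genes. Of 13 markers of mature neurons, 12 were called lower in explants and 1 did not pass; their summed intensity over the 10 measured on every array was 271205 to 296729 in controls and 24032 to 29984 in explants, and Nefl, Nefm and Nefh were above background on none of the explant arrays. Of 7 oligodendrocyte markers tested, 6 were called lower, and the sum over 6 of them was 59620 to 80039 against 3769 to 7707, with Mbp and Mobp above background on no explant array. Of 9 immature-neuron markers tested, 6 were called higher, and the sum over 8 was 54122 to 62223 against 237358 to 248840. Of 7 proliferating-progenitor markers tested, 3 were called higher and 1 lower, with sums over 7 markers of 17385 to 20896 against 62732 to 100097. The part of these cell types in the kinesin differences was not tested.

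Of the 11 mitotic kinesins, 5 to 6 were above background on each control array and 0 to 5 on each explant array. Between explants and controls 4 could be tested. Kif20a, which brings the Aurora B complex to the central spindle at cytokinesis, was at 9.73, 9.89 and 10.00 in controls and at 11.30, 11.23 and 11.44 in explants. The groups did not overlap, giving +1.45 ± 0.22 (adjusted p = 0.00204), but only explant 1 was above its local background. The control values lay under the lowest levels detected on the explant arrays (11.02 to 12.11). Explants 2 and 3 therefore measure no direction, and the rise rests on explant 1. Kif4, a chromokinesin that condenses chromosomes and shortens the midzone, was at 12.44, 11.89 and 11.75 against 12.49, 12.02 and 12.20, which overlap (+0.21 ± 0.28, adjusted p = 0.573). Kifc1, a minus-end motor that focuses spindle poles, was at 10.17, 9.95 and 11.10 against 11.57, 11.58 and 10.32, with control 3 above explant 3 (+0.75 ± 0.45, adjusted p = 0.206). The accession of the Kifc1 probe belongs to its near-identical copy Kifc5b in RefSeq, so its values may mix these genes. Kif18a, which damps chromosome oscillation, gave -0.46 ± 0.28 (adjusted p = 0.221).

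The other mitotic kinesins were above background on all arrays of neither group, or lost explant spots, and stayed outside the test. Kif2c, a microtubule depolymerase that corrects faulty chromosome attachment, was at 9.84, 8.87 and 9.05 in controls and at 11.23, 11.10 and 10.45 in explants, so the groups did not overlap. Kif15, a spindle motor that can stand in for Kif11, was at 7.88, 8.72 and 7.53 against 11.61, 11.11 and 12.18. Kif22, a chromosome-arm motor, was at 6.80, 8.16 and 8.21 against 10.13, 10.06 and 8.48. In each of these genes at most 1 array of a group was above background. When probes were not filtered for brightness, limma called 4 of 10 mitotic kinesins higher (Kif20a, Kif15, Kif2c and Kif22), beside 16.2% higher and 17.2% lower over all named genes in that analysis. For Kif15, Kif2c and Kif22 these calls compare readings mostly under the detection limit, so no size is given. Kif23, a centralspindlin motor needed for abscission, was at 9.62, 9.65 and 10.02 against 9.93, 9.11 and 11.08 and did not pass in that analysis either (adjusted p = 0.683). Kif11, the motor that pushes spindle poles apart, was at 10.72, 11.15 and 10.40 in controls and kept 1 explant value, 11.45. Kif14 and Kif2b were above background on no unamplified array.

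**Figure D2:**
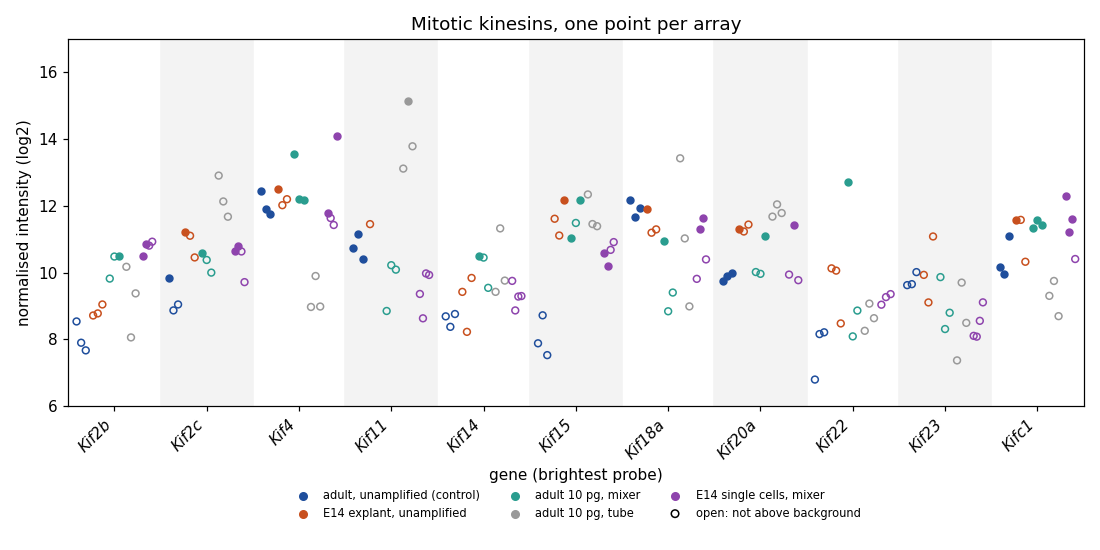
Normalised log2 intensity (vertical axis) of the 11 mitotic kinesins (horizontal axis), 1 point per array, coloured by group; open points are not above background. Kif20a explant points sit at 11.23 to 11.44, with explant 1 alone above background, over control points at 9.73 to 10.00. Most other explant and control points are open or overlap.

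The mitotic class shared a promoter feature that the choice of genes by name did not use. Many genes of the late cell cycle carry a short element called the cell cycle genes homology region, often near a CCAAT box, the site of the factor NF-Y. RefSeq promoter windows (GRCm38.p6, 250 bases before to 50 after a gene's start) were at hand for 29 of the 37 genes and were searched on both strands for TTTGAA, for the rarer form TTCGAA and for CCAAT, and no matches overlapped in the windows searched. TTTGAA was found in 8 of 10 mitotic promoters (80.0%), in 1 of 11 windows of 9 transport genes (9.09%) and in 1 of 12 windows of 10 other kinesins (8.33%), while 17.9% of all 32851 windows held it. TTCGAA was in none of the mitotic windows, in 1 of the other kinesins (Kif24) and in 1.56% of all windows. CCAAT was found in 7 of the 10 mitotic promoters (70.0%), in 4 of 11 transport windows (36.4%), in 3 of 12 of the others (25.0%) and in 37.4% of all windows. Either form of the element and CCAAT occurred together in 6 of the 10 mitotic windows (60.0%), in none of the 11 transport windows, in 2 of 12 windows of the others (16.7%) and in 7.52% of all windows. The windows without TTTGAA in the mitotic class were those of Kif18a and Kif2b, and no window was at hand for Kif20a. Where found, its place varied: it lay 228 bases upstream of the start in Kif14 and 103 in Kif2c. In Kifc1, Kif23 and Kif4 it lay 1, 2 and 19 bases downstream. A match describes the letters of the window and is not a tested binding site.

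Windows of 3 mitotic kinesins and, for contrast, of the transport kinesin Kif17 follow, each 5′ to 3′ on the gene's strand with every motif match of either strand in capitals. On the opposite strand the cell-cycle element reads TTCAAA, and the box bound by NF-Y reads ATTGG. Kif11 (chr19:37376132-37376431, plus strand) and Kif22 (chr7:127042371-127042670, minus strand) have TTTGAA 19 and 17 bases upstream of the start and CCAAT 45 and 54 bases upstream. Kif22 has a further TTTGAA 215 bases and a further CCAAT 233 bases upstream, and Kif15 a further TTTGAA 234 bases upstream. Kif15 (chr9:122950831-122951130, plus strand) has TTTGAA 19 bases upstream and no CCAAT, and Kif17 (chr4:138262001-138262300, plus strand) has no match.
Kif11: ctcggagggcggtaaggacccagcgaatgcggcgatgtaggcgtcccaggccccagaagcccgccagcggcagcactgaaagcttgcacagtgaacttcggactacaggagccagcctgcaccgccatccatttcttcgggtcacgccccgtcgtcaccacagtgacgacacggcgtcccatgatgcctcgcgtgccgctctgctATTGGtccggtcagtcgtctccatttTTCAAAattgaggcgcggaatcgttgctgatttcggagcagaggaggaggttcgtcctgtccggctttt
Kif22: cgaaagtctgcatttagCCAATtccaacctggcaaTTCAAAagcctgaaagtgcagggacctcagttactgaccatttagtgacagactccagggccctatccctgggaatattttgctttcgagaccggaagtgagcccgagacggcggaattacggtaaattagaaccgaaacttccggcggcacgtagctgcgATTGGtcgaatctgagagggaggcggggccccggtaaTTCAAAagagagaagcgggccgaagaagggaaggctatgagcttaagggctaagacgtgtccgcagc
Kif15: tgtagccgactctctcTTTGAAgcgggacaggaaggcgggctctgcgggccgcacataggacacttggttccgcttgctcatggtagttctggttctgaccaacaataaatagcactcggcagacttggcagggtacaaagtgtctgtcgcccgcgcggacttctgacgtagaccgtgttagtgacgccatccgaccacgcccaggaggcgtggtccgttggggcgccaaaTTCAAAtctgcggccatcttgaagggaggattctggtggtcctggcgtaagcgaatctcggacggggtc
Kif17: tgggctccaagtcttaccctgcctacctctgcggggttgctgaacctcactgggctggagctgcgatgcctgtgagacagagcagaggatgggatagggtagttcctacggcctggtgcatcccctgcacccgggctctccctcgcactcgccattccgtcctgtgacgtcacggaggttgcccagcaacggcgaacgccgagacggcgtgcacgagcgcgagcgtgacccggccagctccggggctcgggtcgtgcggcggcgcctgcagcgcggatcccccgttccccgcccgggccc

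**Figure D3:**
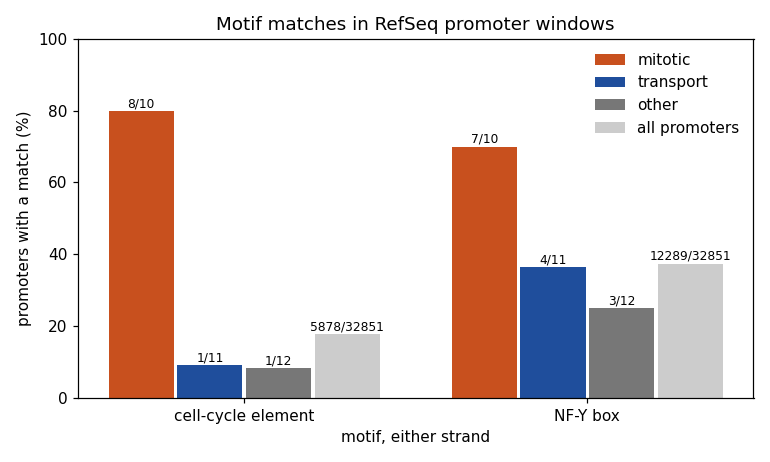
Percentage of promoter windows with a match on either strand (vertical axis) for the cell-cycle element TTTGAA and the NF-Y box CCAAT (horizontal axis), by kinesin class and for all windows; fractions above the bars are windows with a match over windows searched. The mitotic bars reach 80.0% and 70.0%, against 17.9% and 37.4% of all windows.

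Of the 11 kinesins outside these classes, 6 were tested between explants and controls and 1 was called, Kif16b, a motor of early endosomes. Its brightest probe was at 10.11, 10.81 and 10.88 in controls and at 11.75, 11.30 and 12.70 in explants (+1.31 ± 0.41, adjusted p = 0.034), with 2 explant arrays above background, and the call was lost in 9 of 15 alternatives. Its other probe was at 10.60, 10.65 and 10.61 against 9.28, 9.96 and 10.14, on no explant array above background. The lowest level detected on the explant arrays (11.02 to 12.11) lay above these control values, so the call of lower (adjusted p = 0.0477) measures no direction. Kif7, a regulator of Hedgehog signalling in cilia, Kif12, Kif1c, Kif24 and Kifc3 gave differences between -0.73 and +0.61 that did not pass. Kif2a, which trims axon branches by depolymerising microtubules, was at 10.74, 10.95 and 10.84 against 11.11, 11.05 and 12.43 and was too dim to test. Kif26a, a kinesin without motor activity, was above background on no control array (9.22 to 9.64) and read 12.48, 12.17 and 12.06 in explants, where explants 1 and 3 were above background; it was called only without the brightness filter (adjusted p = 0.000327).

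The second comparison sets 10 pg of the adult RNA, reverse-transcribed in the mixer and amplified, against the unamplified controls. Priming and scan session differed along with input and amplification, so their parts cannot be told apart. Of the kinesins that were bright in unamplified RNA, Kif5a, Kif1a, Kif3c, Kif21a and Kif17 were dimmed or lost, whereas Kif13a, Kif21b, Kif7 and Kif12 did not pass the test. The kinesin-1 and kinesin-2 genes Kif5b and Kif3a fell below background as well, while Kif3b did not pass and the brightest Klc2 probe was saturated in both groups. Of 28 genes tested, 7 were called higher and 9 lower, beside 24.7% higher and 35% lower over all named genes tested. Of the 28, 3 (Kif6, Kif26a and Kif27) were above background on all mixer arrays and no control array, and 5 the reverse. These passed the brightness filter through 1 group alone, so their direction was largely set by that choice. Others that were above background on some arrays of the second group but not all also passed it through 1 group alone. Among them, Kif21a, Kif3c, Kif3b and Kif18a passed through the controls and Kif2a through the mixer. Among 13 transport kinesins tested, 8 were lower and 1, Kifc2, was higher (median -1.94, against -0.40 over all named genes). The control arrays are the same as in the explant comparison, so the calls of these comparisons are not independent.

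Kif5a read 9.76, 9.56 and 9.62 with the mixer, on no array above background, which is at least 31.8-fold below the saturated controls (-5.58 ± 0.25, adjusted p = 4.15e-05). Its second probe agreed in direction, with 10.36, 10.72 and 10.19 and a fall of at least 18.9-fold (adjusted p = 5.45e-05). Kif5b read 8.56, 9.26 and 8.82 and Kif3a 8.83, 9.54 and 8.96. All 6 of these values were below the detection limit and under every control value, so Kif5b was at least 3.37-fold lower (adjusted p = 0.000171) and Kif3a at least 2.92-fold lower (adjusted p = 0.00112). Kif5a, Kif5b and Kif3a entered the test through the controls alone, so their lower direction was largely set by that choice. Kif5c kept 1 measured array, at 10.68, and could not be tested. Kif1a was still detected at 11.77, 11.05 and 11.24 but at least 15.6-fold below the controls (-3.97 ± 0.30, adjusted p = 8.01e-05).

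Kif21a read 10.70, 10.51 and 10.23 (-2.72 ± 0.29, adjusted p = 0.000221) and Kif17 read 11.16, 11.27 and 10.85 (-1.94 ± 0.31, adjusted p = 0.00123). Kif3c was lower as well (-2.27 ± 0.55, adjusted p = 0.00925). Kif1b, at 11.32, 12.10 and 11.37, was lower by less than the others (-0.94 ± 0.31, adjusted p = 0.0309) and passed in 6 of 15 alternatives. In contrast Kif13a (12.20, 13.38 and 12.14), Kif3b (11.44, 12.02 and 11.51) and Kif21b (13.40, 12.71 and 13.07) overlapped the controls and did not pass. The Klc2 probes split: the brightest was saturated in both groups (14.81, 15.11 and 14.73 with the mixer), whereas the other fell to 8.95, 8.89 and 8.66, at least 2.34-fold below controls (adjusted p = 0.000181). Klc1, under its older name, was lower by at least 6.31-fold (adjusted p = 0.000252).

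Kinesins that rose with the mixer were mostly outside the transport class. Kif6, which in mouse is known from cilia of the ependyma, read 12.80, 14.13 and 13.46 against 9.50, 9.29 and 8.09 in controls, none of them above background there, and so was at least 14.5-fold higher (+4.51 ± 0.49, adjusted p = 0.000246). Kif26a read 12.68, 12.57 and 12.44 and was at least 7.75-fold higher (adjusted p = 0.000101). Kif27, known from motile cilia, read 11.86, 11.21 and 11.65 and was at least 3.91-fold higher (adjusted p = 0.000491). For these 3 genes the mixer arrays were all above background and the control arrays all below it, and since this is also how they entered the test, a higher reading was fixed by that choice. Kif1c, a Golgi and vesicle motor, rose by 1.85 ± 0.26 (adjusted p = 0.000716). Kifc2 read 12.04, 13.02 and 12.97, all above the controls (+1.16 ± 0.36, adjusted p = 0.0236), a call lost in 6 of 15 alternatives. Kif16b was higher by its brightest probe (12.37, 13.21 and 12.44, +2.08 ± 0.36, adjusted p = 0.00189) and lower by its other (8.17, 9.21 and 8.65, none above background, at least 1.30-fold, adjusted p = 0.00163). Kif2a read 11.08, 11.82 and 11.25 and did not pass (+0.54 ± 0.29, adjusted p = 0.146).

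With the mixer 5 mitotic kinesins were tested. Kifc1 read 11.35, 11.59 and 11.44 and was higher (+1.05 ± 0.36, adjusted p = 0.035), a call lost in 7 of 15 alternatives, and Kif18a was lower (-2.20 ± 0.53, adjusted p = 0.00896). Kif4 (13.57, 12.21 and 12.18), Kif20a (10.02, 9.96 and 11.08) and Kif11 (8.85, 10.22 and 10.09) did not pass, with adjusted p of 0.254, 0.286 and 0.0703. Kif22 read 12.73 on microfluidic 1, the only array on which it was above background, and 8.09 and 8.86 on the others. Kif23 read 9.87, 8.31 and 8.80 and Kif2c 10.60, 10.38 and 10.00, mostly below background. Kif15 had probes with separate patterns: one read 11.84, 12.48 and 11.42, above background on all mixer arrays and on no control or explant array, so that it too entered the test through the mixer alone, and was at least 4.94-fold higher than controls (adjusted p = 0.000392), while the brightest overall was not detected on all arrays of any group.

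**Figure D4:**
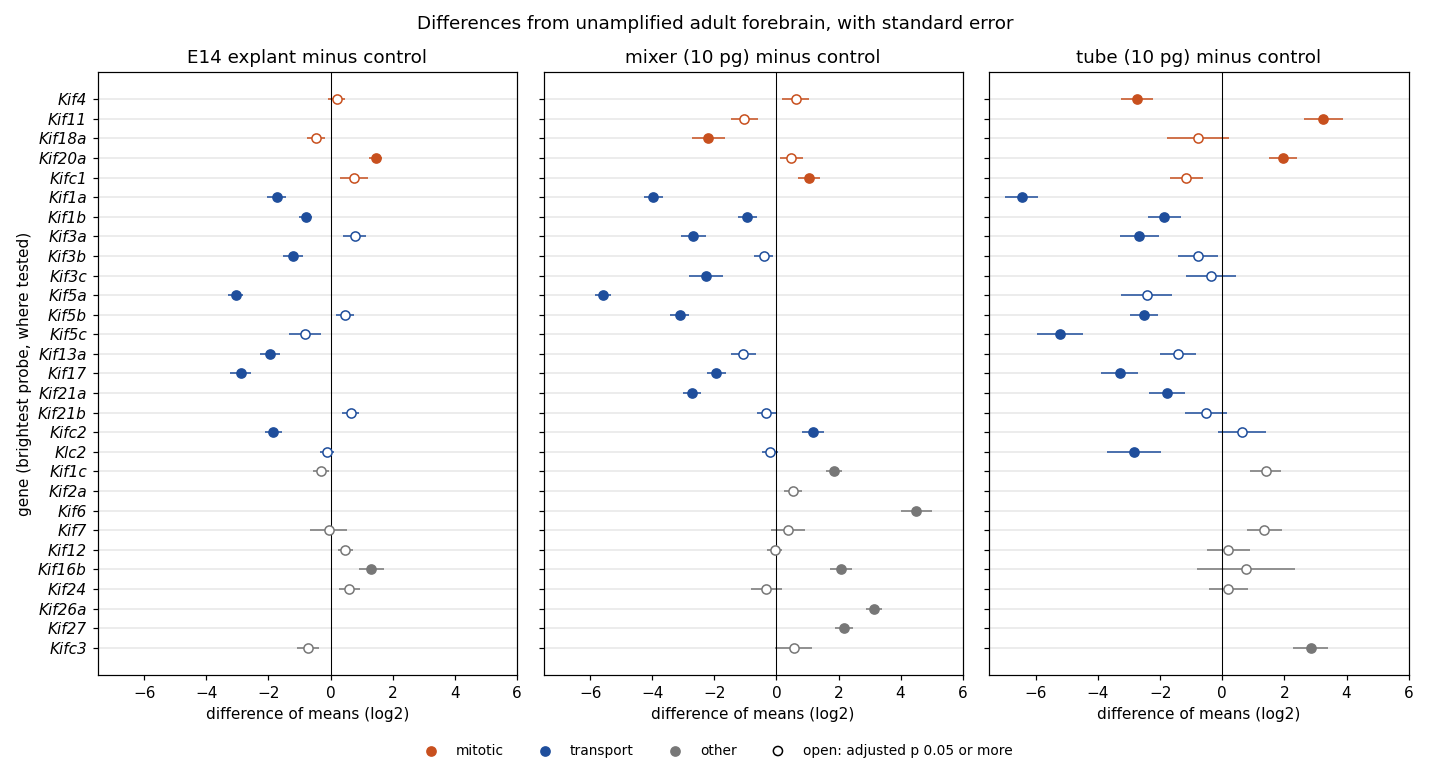
Difference of mean log2 intensity from the control arrays (horizontal axis), with standard error, for each tested kinesin (vertical axis) in explants, mixer reactions and tube reactions (left to right); filled points passed the test, and the 3 panels share the control arrays. Transport kinesins lie mostly left of 0 in all panels, with tube readings mostly below background, Kif5b and Kif3a lie right of 0 in explants and left of it after amplification, and Kif6, Kif26a and Kif27 lie far right with the mixer.

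With the tube reaction few kinesins were measurable. Between 2 and 3 of the 47 kinesin probes were above background on each conventional array, against 21 to 31 with the mixer. Of 25 genes tested against controls, 3 were called higher and 9 lower, beside 6.54% higher and 22.5% lower over all named genes tested. Leaving out 1 control array gave 6 or 7 calls in place of 12. Among 14 transport kinesins tested 8 were called lower, and 13 of the 14 were above background on no tube array, so their intensities give bounds at most. The lowest level detected was 14.51, 14.86 and 13.84 on conventional 1 to 3. Kif1a read 8.18, 8.82 and 9.60, at least 1.89-fold below controls (adjusted p = 0.000817), and Kif5c 10.34, 9.01 and 10.94, at least 1.91-fold below (adjusted p = 0.00263). Kif5b (9.64, 9.45 and 9.28; adjusted p = 0.00585), Kif3a (9.51, 9.72 and 8.10; adjusted p = 0.0166), Kif17 (8.84, 10.67 and 9.67; adjusted p = 0.00592), Kif1b (11.02, 9.81 and 11.15; adjusted p = 0.0322) and Kif21a (11.44, 10.51 and 12.28; adjusted p = 0.0491) were called lower by limma. Their control levels lay under the lowest levels detected on the tube arrays, so these calls measure neither a fold nor a direction. The Kif21a call was lost in 7 of 15 alternatives, that of Kif1b in 4 and that of Kif3a in 2. Kif5a scattered over 12.26, 14.72 and 11.40 and did not pass (adjusted p = 0.0585). Klc2 read 12.49, 10.25 and 13.94, with 1 tube array above background, and was at least 1.57-fold below the saturated controls (adjusted p = 0.0419), a call lost in 4 of 15 alternatives.

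Among mitotic kinesins in the tube, Kif11 read 13.12, 15.13 and 13.78, above every control, and was called higher (adjusted p = 0.00737), but only conventional 2 was above background. The call was lost with the deposited signal values (adjusted p = 0.0541). Kif20a read 11.68, 12.04 and 11.78 and Kif4 read 8.97, 9.90 and 8.98, none above background. Limma called Kif20a higher (adjusted p = 0.0141) and Kif4 lower (adjusted p = 0.00654), but the readings of both groups lay under the lowest levels detected on the tube arrays, so no direction was measured. Kifc3, a minus-end motor of epithelial junctions, was the remaining higher call, at 14.76, 15.36 and 13.73 with conventional 1 and 2 above background (+2.85 ± 0.57, adjusted p = 0.00875). It was lost with the deposited signal values (+0.25, adjusted p = 0.459) and without control 2 (adjusted p = 0.0565). Kif6 was bright in the tube too, at 14.80, 12.87 and 14.30, above background on conventional 1 and 3, but was not above background on enough arrays to be tested against controls.

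Mixer and tube were also compared directly at the same input. Of 18 genes tested 5 were called higher with the mixer and none lower by limma, beside 21.7% higher and 4.75% lower over all named genes tested; at an unadjusted p under 0.05, 1 gene (Kifc3) was lower. The total was 1 or 2 when a mixer array was left out and 17 with the deposited signal values. Since a probe had to be above background on all arrays of a group to be tested, and 14 of these 18 were so with the mixer and on no tube array, the direction was largely set by the choice of probes. The 5 were Kif4 (adjusted p = 0.00814), Kif2a (adjusted p = 0.00961), Kif26a (adjusted p = 0.0144), Kif1a (adjusted p = 0.0192) and Kifc1 (adjusted p = 0.0219). All 5 were above background on no tube array, and their mixer levels lay under the lowest levels detected there, so these calls measure no difference in level. Kif6 overlapped between mixer and tube (adjusted p = 0.601).

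The 4 single cells have no named animal, so their values are given without a test. Of the kinesin-1 and kinesin-2 genes, Kif5b, Kif3a and the brightest Kif5a probe were above background in no cell. The brightest Klc2 probe and Kif3c were above background in all 4. The second Kif5a probe, at 9.97 to 11.37, was above background in 1 cell. Kif5b read 8.36, 7.65, 10.19 and 9.29 in cells 1 to 4, Kif3a 8.89, 8.88, 9.71 and 9.81, and Kif5a 9.82, 9.33, 8.68 and 9.14. All 4 cells lay below every explant array in each of these genes. The mean over the cells minus the mean of explants was -3.59 for Kif5b, -3.23 for Kif3a and -2.93 for Kif5a, and the cells differed from the mean of adult RNA in the mixer by -0.01, +0.22 and -0.41. For these probes no cell and no mixer array was above background. The differences from explants are therefore not measured sizes, and the small differences from the mixer do not show equal levels. Kif5c was measured in 3 cells, at 10.51, 10.29 and 11.06, and above background in cell 2. Kif21a was at 8.66, 8.69, 9.54 and 8.83, below every mixer array of adult RNA and below background.

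Other transport kinesins were seen in the cells. Kif1a was above background in all 4, at 11.63, 10.67, 11.70 and 12.12, below all explant arrays, and its mean differed from that of adult RNA in the mixer by +0.18. The brightest Klc2 probe was at 15.05, 14.78, 15.22 and 13.46, saturated in cells 1 to 3. Kif17 separated the cells widely: it read 15.13 and 12.63 in cells 1 and 2, with cell 1 saturated, and 9.72 and 10.79 in cells 3 and 4, where it was not above background. The explants, also below background, read 9.76 to 10.71, so cell 3 alone did not exceed them all. Kif1b read 11.04, 13.02, 8.32 and 11.22, a range of 4.70, with cells 1 and 2 above background, and Kifc2 read 12.88, 13.03, 10.76 and 11.27 with the same pair above background. Kif13a was measured in cells 2 to 4 at 12.17, 11.68 and 11.68, and Kif3b in cells 1, 2 and 4 at 11.47, 10.96 and 9.94. Cells 1 and 2 also had the larger share of all probes above background, 43.1% and 48.3% against 33.3% and 25.3%, and the part of this in the pattern was not tested.

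Several mitotic kinesins were faint in the cells, while Kif4, Kifc1 and a Kif15 probe were brighter. Kif11, at 9.36, 8.63, 9.97 and 9.93, Kif23, at 8.11, 8.08, 8.56 and 9.11, and Kif22, at 9.04, 9.27 and 9.36 in the 3 cells measured, were above background in none. A dimmer Kif15 probe was above background in all 4, at 12.19 to 13.43, and the brightest in 2. Kif4 stood at 11.80, 11.63, 11.43 and 14.09, so that cell 4 was apart from the rest. Kif20a was above background in cell 2 alone, at 11.43, with 9.94 and 9.77 in cells 1 and 3. Kif2c read 10.66, 10.80, 10.63 and 9.71 and Kifc1 12.29, 11.22, 11.61 and 10.41, the latter above background in cells 1 to 3. Mki67 was above background in no cell, at 8.66 to 10.05; it was also above background on no mixer array of adult RNA (8.06 to 10.26), although the same RNA read 12.18 to 12.51 unamplified. A cell that lacked the Mki67 transcript and a transcript missed by the reaction cannot be told apart here. Other progenitor markers were seen in the cells: Cdk1 was above background in all 4, and Ccnb1, Top2a, Pcna, Mcm2 and Nes in 3. All of these but Ccnb1 were also above background on 2 or 3 mixer arrays of adult RNA. Sox2, Mcm5, Hes1, Hes5 and Vim were above background in no cell.

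Kinesins that rose with the mixer in adult RNA were in part also bright in the cells. Kif6 read 13.99, 13.35, 15.63 and 12.84, above background in all 4 cells and at least as high as 12.80, the lowest mixer array, whereas no explant array exceeded 9.41. The Kif15 probe that rose with the mixer read 12.76, 12.19, 13.03 and 13.43 in the cells, against 8.80 to 9.26 in explants. Kif1c read 13.81, 12.29 and 13.14 in the 3 cells measured, and Kif16b 12.19, 11.50, 12.94 and 14.10. Kif26a was above background in cells 1 to 3, at 12.57, 11.53 and 11.64, and Kif27 in none. Kif2a read 11.44, 11.08, 15.87 and 12.18, and cell 3 was saturated. Over the classes the median difference of the cells from explants was -0.48 for the 11 mitotic genes, -0.58 for the 14 transport genes with explant values and +1.11 for the 11 others, against 0.01 over all named genes; from adult RNA in the mixer it was -0.25, -0.25 and +0.21, against 0.01. The transport value turned to +0.18 with the deposited signal values.

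The remaining members varied as follows. Kifc3 was at 15.44, 15.29, 14.35 and 11.96 in the cells, with 3 of the 4 above every adult mixer array (11.57 to 13.76) and all above every explant array (10.46 to 11.67). Kif7 was at 11.67 to 12.50 in the cells, below every mixer array (the lowest at 12.68), and above background in all 4. Kif12 was above background in all 4 cells, on all mixer arrays and on all unamplified arrays, within 11.98 to 13.61. Kif3c was above background in all 4 cells, at 11.93, 10.52, 11.16 and 14.31. Kif9, a motor of motile cilia and flagella, was above background on none of the 16 arrays, so nothing can be said of its level. Kif14 was above background on microfluidic 1 alone (10.49), and Kif2b on microfluidic 3 (10.50) and in cells 1 and 2 (10.50 and 10.85). Kif18a was above background in cells 2 and 3 (11.32 and 11.64), Kif24, a motor of the centriole, in cell 1 (10.79), and the brightest Kif13b probe in cells 1 and 2 (10.83 and 10.51). Kif21b was above background in all 4 cells and ranged from 12.34 to 15.75.

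**Figure D5:**
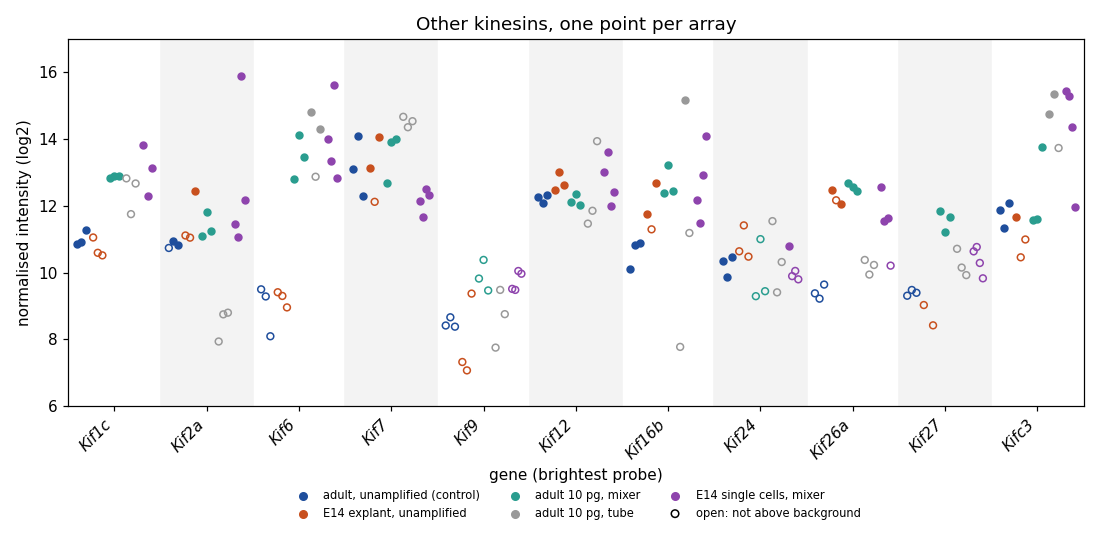
Normalised log2 intensity (vertical axis) of the 11 kinesins outside the mitotic and transport classes (horizontal axis), 1 point per array, coloured by group; open points are not above background. Kif6 is open at 9.50 or below in all unamplified arrays and lies at 12.80 or above in every amplified sample.

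Partners of the kinesins were taken from lists chosen by function. Of 36 spindle, kinetochore and cytokinesis genes on the array 19 were tested between explants and controls, 9 were higher and 1 lower (median +0.61). The 3 with the smallest p were Ccnb1, the mitotic cyclin B1, which was at least 18.6-fold higher (adjusted p = 1.9e-05), Mad2l1, a spindle checkpoint protein (+2.55 ± 0.24, adjusted p = 0.000264), and Ckap5, a microtubule polymerase (+1.86 ± 0.29, adjusted p = 0.00221). Ccnb1 was above background on all explant arrays and no control array. It entered the test through the explants alone, so a higher reading was fixed by that choice. Dynein and dynactin, the motor complex that runs the opposite way along axons, had 19 of 24 genes tested, with 3 higher, 2 lower and a median of +0.58. Its dynactin subunits Dctn5 (+1.66 ± 0.34, adjusted p = 0.00701) and Dctn3 (+1.25 ± 0.26, adjusted p = 0.00766) were higher and the dynein chain Dync1li1 lower (-0.95 ± 0.27, adjusted p = 0.0256). Of 21 cargo adaptors and partners 15 were tested, 3 were higher and 3 lower (median -0.22): the mitochondrial adaptor Rhot2 was lower (-1.57 ± 0.26, adjusted p = 0.00285), the light chain Klc3 higher (+1.31 ± 0.23, adjusted p = 0.00344) and the scaffold Mapk8ip1 lower by at least 2.66-fold (adjusted p = 0.00383). Over all named genes the median was -0.29, with 15.8% called higher and 26.9% lower. Of the partners tested, 4 spindle genes, 4 dynein and dynactin genes and 7 adaptors were above background on no explant array. These entered the test through the controls alone, so their direction was largely set by that choice.

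With the mixer, most tested dynein and dynactin genes and adaptors were lower, beside a median of -0.40 over all named genes, of which 24.7% were called higher and 35% lower. Of 20 dynein and dynactin genes tested 13 were lower and 2 higher (median -1.47), among them Dynlrb1 (-4.68 ± 0.42, with 2 control arrays saturated, adjusted p = 0.000124), Dctn3 (at least 2.51-fold, adjusted p = 0.000221) and Dctn6 (at least 2.17-fold, adjusted p = 0.000334). Of 18 adaptors 10 were lower and 2 higher (median -1.46), led by Madd (-2.68 ± 0.28, adjusted p = 0.000211), Trak2 (at least 4.85-fold, adjusted p = 0.000302) and Mapk8ip1 (-2.34 ± 0.33, adjusted p = 0.000775). Spindle and cytokinesis partners split, with 7 higher and 5 lower of 22 tested (median -0.03): Hmmr was at least 18.1-fold lower (adjusted p = 0.000104), Cdca8 at least 6.12-fold higher (adjusted p = 0.000296) and Cdc20 lower (-1.92 ± 0.28, adjusted p = 0.000868). Above background on no mixer array were 7 dynein and dynactin genes, 5 adaptors and 4 spindle partners, and 1 spindle partner was so on no control array. These entered the test through 1 group alone, so their direction was largely set by that choice. In the tube reaction 2 of 18 spindle partners were called higher and 6 lower, 12 of 20 dynein and dynactin genes lower, and 1 of 16 adaptors was higher and 4 lower, beside 6.54% higher and 22.5% lower over all named genes. Of these partners 14, 20 and 15 were above background on no tube array.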

How the data were processed

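Foreground and local background intensity of every spot at the Cy5 wavelength were deposited, per the file headers, without background subtraction or normalisation and capped at 65535. The spot flags in the deposited files are a score with no scale. The authors' deposited signal values of the series table were used only as an alternative, as were log2 values taken from them here. No aligner or genome build applies. Spots flagged -100 were left out unless saturated. Intensities were corrected by normexp (offset 50), quantile-normalised over 16 arrays and taken to log2 in limma 3.58.1 (R 4.3.3); the figures used matplotlib. Conventional 1 has no background SD, so the mean SD of the same spot on conventional 2 and 3 was used.

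Pairs of groups were compared by limma with Benjamini-Hochberg adjustment over all probes that were above background on every array of at least 1 of the groups and measured on all but at most 1 array of each. Folds are lower bounds where all arrays of a group were saturated or below background; arrays below background were set to their lowest detected level. A bound under 1 is not given. The test was checked on simulated data. Values per array are given for members called in explants and for a list of mitotic and transport motors, and for each list of partners the 3 genes with the smallest p. Members and lists were chosen with earlier results of these data known. Same-numbered arrays of different groups deviated with correlations of -0.18 to 0.091, so numbers were not taken as pairs. Cells were described without a test. Alternatives were no background correction, median centring, normalisation within pairs, the deposited values, no brightness filter, an intensity trend, a common fit, the replicate block, all probes and each array left out.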

Additional observations from a re-analysis of the deposited data

Results flagged for a closer look

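In the 38 kinesin probes measured in all 4 cells, 2 had a cell far from the others; chance alone flags about 1 group in 20. Kif4 was at 14.09 in cell 4 and at 11.43 to 11.80 in the other cells, and was above background in cell 4. Kif2c was at 9.72 in cell 4 and at 10.63 to 10.80 in the others, and was not above background in cell 4.

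Kif15, by its brightest probe, went opposite ways in unamplified and amplified material. Every explant array was above every control array (difference of means +3.59), and every cell was below every mixer array of adult RNA (-0.97), a gap of 4.56 between these log2 differences. The difference between the contrasts was not tested, and most of these values were below the detection limit.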

How the results depend on the processing

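The number of kinesin genes called between explants and controls was 9 and ranged from 8 to 13 over the alternatives that kept all arrays, except 5 with a common fit over 4 groups, in which 4 of the 7 lower transport kinesins were left; leaving out 1 array gave 6 to 10 calls, 1 to 2 higher mitotic kinesins and 5 to 7 lower transport kinesins, and no brightness filter gave 4 higher mitotic kinesins instead of 1, with more genes tested. Mixer against control gave 16 calls, 11 to 21 over the alternatives and 13 to 19 with 1 array left out. Tube against control gave 12 calls, with 13 lower transport kinesins instead of 8 from the deposited signal values, and with 1 array left out 6 to 16 calls and 4 to 9 lower transport kinesins; each left-out control array cut it to 6 or 7. Mixer against tube gave 5 calls, but 8 with median centring, 17 with the deposited values, 9 with the common fit, and 1 to 7 with 1 array left out. The cause was not tested.

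A call in the opposite direction appeared for genes that had not been called: with the deposited values Kif21b in explants (-0.67), Kif12 (-1.03) and Kif7 (-1.15) in the tube against control, and Kif12 (+1.31), Kif6 (+2.41) and Kif7 (+2.40) in the mixer against the tube, and with median centring Klc2 in the mixer against control (+1.37). Median centring moved the median over all tested probes from -0.41 to -0.15 in the mixer and from 1.00 to 1.60 in the mixer against the tube. The median difference of cells from explants moved from -0.48 to -0.21 for mitotic kinesins with the deposited values, and from -0.58 to -0.11 with median centring and +0.18 with the deposited values for transport kinesins. With the replicate block the counts were 8, 15, 11 and 6 in the order above. The detection limit from buffer spots for conventional 1, an alternative chosen after seeing the data, left all 4 counts as they were. The low share of probes above background on the tube and explant arrays limits which kinesins could be tested.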

Other observations

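The array holds 4 further kinesin probes under older names, outside the search by name: 1 of Klc1, 1 of Kif18b and 2 of Kif20b. A Kif20b probe, for a motor of cytokinesis, was at a mean of 11.42 in controls and 11.53 in explants (+0.11 ± 0.38, adjusted p = 0.839) and was lower with the mixer by at least 2.27-fold (adjusted p = 0.00786, limma); in the tube it was not above background.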
